A study of Mus musculus with 6 samples.

Results

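The proteasome genes were taken by name from a table of FPKM values (fragments counted on a gene, divided by its transcript length and by the size of the library): every symbol that starts with Psma, Psmb, Psmc, Psmd, Psme or Psmg followed by a digit. They numbered 48 among 23203 loci. Naive mouse CD4 T cells were stimulated with plate-bound anti-CD3e (10 µg/ml) and anti-CD28 (1 µg/ml) and turned into Th17 cells, the helper T cells that make IL-17. This took 48 h in 3 cytokines: IL-6 at 20 ng/ml, IL-23 at 10 ng/ml and TGFb1 at 2.5 ng/ml. They were given either 250 µM 2DG (2-deoxyglucose, a glucose analogue used to inhibit glycolysis) or vehicle (DMSO) and 3 libraries of total RNA were made of each. The labels name no strain, genotype or age, and nothing says that the 3 libraries stem from different mice or wells; a p-value here sets the difference against library-to-library spread, some of which may be technical. The question put to these genes is how the transcripts of the protein-degrading machinery differ between Th17 cultures with 2DG and with vehicle.

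The proteasome is the protease that degrades proteins tagged with ubiquitin. Its core is a barrel of alpha subunits (Psma genes), which form the gate, and beta subunits (Psmb genes), of which a few hold the cutting sites. A cap of ATPases (Psmc) and other subunits (Psmd) recognises, unfolds and feeds in the substrate, while the activators of the Psme genes open the barrel without ubiquitin. Lymphocytes and interferon-treated cells exchange the constitutive cutting subunits Psmb6, Psmb7 and Psmb5 for the immunoproteasome subunits Psmb9, Psmb10 and Psmb8. Psmg1 to Psmg4 encode chaperones that help build the core, and Psmd5, Psmd9 and Psmd10 encode chaperones of the cap's base. In T cells, which grow and divide fast after stimulation, the proteasome also degrades the inhibitor of NF-kB and so takes part in activation.

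The promoters of the immunoproteasome genes and of the constitutive partners Psmb5 and Psmb6 are shown because these genes are set against each other within each library (none is shown for Psmb7), and that of Psmg4 because it had the largest log2 fold change after Psmb10. Each covers 250 bases before to 50 after the transcript start in RefSeq (GRCm38.p6), and capitals mark any match, on either strand, to TGACNNNGC (the antioxidant response element, through which NRF1 and NRF2 act), GAAA with a second GAAA 2 bases on (the core of the interferon-stimulated response element), TTCNNNGAA (the STAT element) or CCAAT.
Psmb5, chr14:54617946-54618245, minus strand: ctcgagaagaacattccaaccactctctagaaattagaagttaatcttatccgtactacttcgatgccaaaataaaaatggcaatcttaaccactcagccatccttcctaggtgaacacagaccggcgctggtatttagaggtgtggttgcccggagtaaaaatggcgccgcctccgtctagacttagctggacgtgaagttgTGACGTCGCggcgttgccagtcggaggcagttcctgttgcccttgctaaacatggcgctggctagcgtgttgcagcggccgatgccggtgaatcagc
Psmb6, chr11:70525107-70525406, plus strand: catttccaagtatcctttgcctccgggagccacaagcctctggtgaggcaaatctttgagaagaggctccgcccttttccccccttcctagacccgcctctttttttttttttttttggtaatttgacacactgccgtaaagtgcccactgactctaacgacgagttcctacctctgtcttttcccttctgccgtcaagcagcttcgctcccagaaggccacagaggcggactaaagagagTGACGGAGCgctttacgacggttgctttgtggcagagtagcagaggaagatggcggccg
Psmb8, chr17:34197945-34198244, plus strand: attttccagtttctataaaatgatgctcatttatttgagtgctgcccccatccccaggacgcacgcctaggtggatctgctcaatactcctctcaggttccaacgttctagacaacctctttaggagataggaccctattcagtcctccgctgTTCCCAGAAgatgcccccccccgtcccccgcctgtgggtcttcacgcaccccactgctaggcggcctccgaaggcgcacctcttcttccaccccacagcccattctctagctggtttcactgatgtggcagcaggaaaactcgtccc
Psmb9, chr17:34187281-34187580, minus strand: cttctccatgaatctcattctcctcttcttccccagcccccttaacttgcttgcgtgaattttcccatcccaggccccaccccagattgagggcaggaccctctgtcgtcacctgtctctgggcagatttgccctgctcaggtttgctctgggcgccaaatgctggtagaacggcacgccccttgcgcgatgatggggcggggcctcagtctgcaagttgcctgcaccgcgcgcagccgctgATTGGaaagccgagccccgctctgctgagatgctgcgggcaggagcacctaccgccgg
Psmb10, chr8:105938343-105938642, minus strand: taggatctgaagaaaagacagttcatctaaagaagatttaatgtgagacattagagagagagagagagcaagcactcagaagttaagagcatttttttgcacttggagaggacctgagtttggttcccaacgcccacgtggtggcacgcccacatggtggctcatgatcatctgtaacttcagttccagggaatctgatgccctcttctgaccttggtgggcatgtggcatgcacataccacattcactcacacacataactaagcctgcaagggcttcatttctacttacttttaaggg
Psmg4, chr13:34162714-34163013, plus strand: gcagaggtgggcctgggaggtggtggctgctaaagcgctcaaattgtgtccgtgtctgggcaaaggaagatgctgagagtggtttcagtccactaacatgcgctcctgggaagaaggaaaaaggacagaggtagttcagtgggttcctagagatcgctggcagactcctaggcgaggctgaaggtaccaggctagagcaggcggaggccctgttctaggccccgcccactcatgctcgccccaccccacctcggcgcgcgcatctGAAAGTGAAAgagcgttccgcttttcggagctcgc
The constitutive genes Psmb5 and Psmb6 each held 1 match to TGACNNNGC and none to the other motifs. Of the immunoproteasome genes, Psmb8 held 1 match to TTCNNNGAA, Psmb9 held 1 to CCAAT and Psmb10 held none. The windows of Psmb8 and Psmb9 lie wholly within the spans given below for these genes. Sequence before the start of those spans was not searched. Psmg4 held 1 match to the interferon element core. A promoter was listed for 40 of the 48 genes. Among these, TGACNNNGC was found in 6 (15%, against 12.4% of all 32851 listed promoters), the interferon element core in 5 (12.5%, against 3.44%), TTCNNNGAA in 3 (7.5%, against 8.3%) and CCAAT in 15 (37.5%, against 37.4%). Of the 7 alpha subunit promoters, 5 held CCAAT. These are matches of letters in a short window, not sites of binding.

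Most proteasome genes were strongly expressed. Of the 48 genes, 46 reached 1 FPKM on average across all 6 libraries, the minimum for a test. The median of their mean levels was 126 FPKM, against 14.7 FPKM over all 10228 tested loci, and all but Psma3 lay above that median of all loci. The genes under the minimum were Psma8, an alpha subunit of the testis, at 0.252, 0 and 0.167 FPKM with 2DG against 0.207, 0 and 0.651 FPKM with vehicle, and Psmb11, a beta subunit of the thymus cortex, at 0.0216, 0 and 0 FPKM with 2DG against 0.0473, 0 and 0 FPKM with vehicle. These values are near 0 in every library. Psmc3ip met the naming rule although its product acts in meiotic recombination and is no proteasome subunit. It was at 15.8 ± 0.447 FPKM with 2DG and 14.7 ± 1.44 FPKM with vehicle (SD, n = 3 each).

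**Figure D1:**
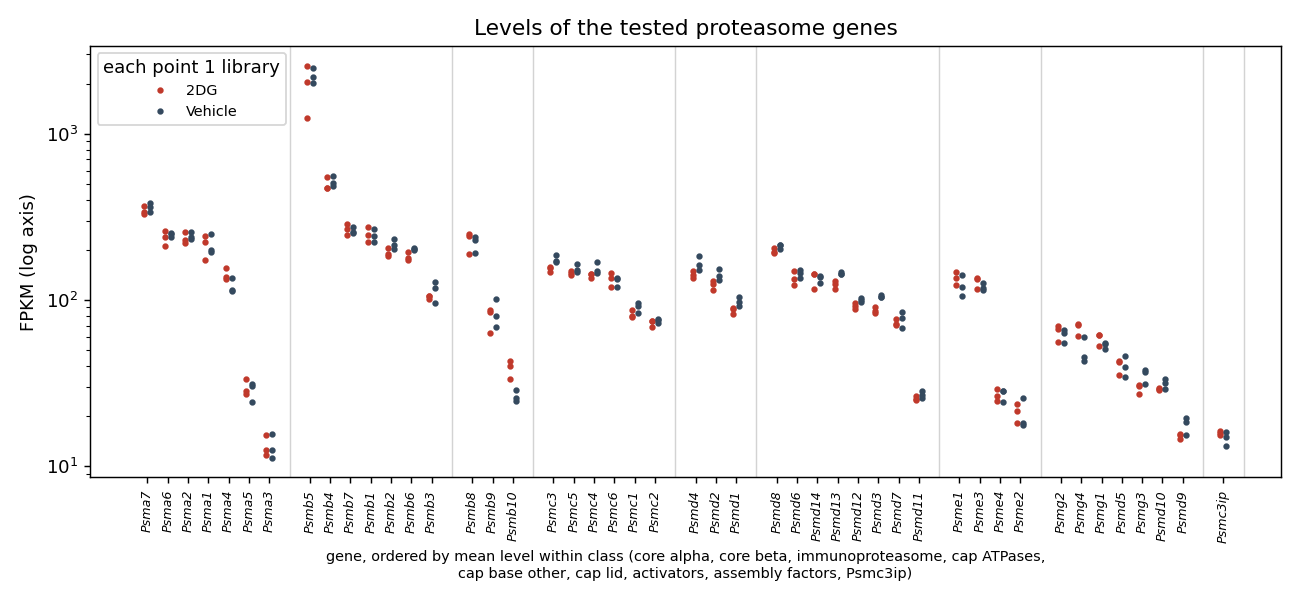
FPKM (log axis) of the 46 tested proteasome genes in each library, ordered by mean level within their class; red points are 2DG libraries and dark blue points vehicle libraries. Within the core, levels ran from 13.1 FPKM for Psma3 to 2097 FPKM for the locus of Psmb5, and the 2 groups lay close together for most genes.

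Subunits that occur in equal numbers in the particle did not have equal transcript levels. Of the alpha genes, Psma7 had the highest mean over the 6 libraries (353 FPKM), followed by Psma6 (241 FPKM), Psma2 (239 FPKM), Psma1 (214 FPKM), Psma4 (132 FPKM), Psma5 (29.1 FPKM) and Psma3 (13.1 FPKM). Psma6 and Psma2 changed order between libraries. Psma1 lay below both in all 6 libraries, though only just in vehicle replicate 1 (249 FPKM against 251 and 256 FPKM). The levels of Psma3 and Psma5 are uncertain estimates: GENCODE M21 annotates 3 pseudogenes that match Psma3, and 2 that match Psma5, at 95% identity or more over at least 200 bases, and it annotates 3 such copies for Psmb3, 2 for Psmc1 and 1 each for Psma4, Psmb5, Psmd2 and Psmd11. Psme2 has such a match in the gene Psme2b. For scale, the table lists the glycolytic gene Gapdh, abundant in most cells, at only 0.473 to 0.924 FPKM with 2DG and 0.135 to 1.12 FPKM with vehicle, so a low value in this table can be a failed estimate. Psmb5 stood far above every other member at a mean of 2097 FPKM, but its locus in the deposited table also carried the microRNA gene Mir686, which lies inside Psmb5 on the same strand, so the value is that of both. Without it Psmb4 was the highest beta gene (508 FPKM), and the others lay between 109 FPKM (Psmb3) and 264 FPKM (Psmb7). The cap genes ran from 73.8 to 165 FPKM for the 6 ATPases and 26.2 FPKM (Psmd11) to 203 FPKM (Psmd8) for the 8 lid subunits.

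None of the 46 tested genes passed the test between 2DG and vehicle (limma on log2(FPKM + 1), Benjamini-Hochberg adjusted p under 0.05 over all loci), where 2.72% of all tested loci did, 1.53% as higher and 1.19% as lower. At an unadjusted p under 0.05, 2 (Psmb10 and Psmg4) were higher and 4 (Psmd3, Psmd13, Psmg3 and Psmc3) lower with 2DG, a share of 6 in 46 where all tested loci gave 17.9%, 9.07% as higher and 8.82% as lower. The libraries of the 2 groups did not overlap in 12 of the 46 genes, 2 higher and 10 lower with 2DG, where all tested loci gave 23.7%, 11.9% as higher and 11.8% as lower. Their log2 fold changes (2DG minus vehicle) ran from -0.27 to 0.53 with a median of -0.064, against a median of -0.0093 over all tested loci. The 95% intervals of 43 of the 46 lay within a 1.5-fold change in either direction, and those of Psmb10, Psmg4 and the Psmb5 locus reached beyond it. A p that misses the threshold does not show that levels were equal, and in bulk RNA fewer cells of a type and less RNA per cell cannot be told apart. All 6 libraries held T cell markers (9 of 9 at a mean of 1 FPKM or more) and Th17 markers (6 of 6). Of these, Cd2 fell with 2DG and Il17a, Rora and Ccr6 rose (adjusted p = 0.00402, 0.00315, 0.0158 and 0.0248). The sum of the Th17 markers was 2371 to 3090 FPKM with 2DG and 1730 to 2008 FPKM with vehicle. The sum of 5 B cell markers was 0.0945 to 2.25 FPKM with 2DG and 0.620 to 3.71 FPKM with vehicle, that of 6 myeloid markers 0.598 to 2.24 FPKM with 2DG and 0.352 to 2.74 FPKM with vehicle, and that of 2 CD8 T cell markers 2.91 to 5.51 FPKM with 2DG and 2.68 to 3.31 FPKM with vehicle. Klrb1c and Ncr1 of NK cells summed to 0 FPKM in the 2DG libraries and at most 0.0755 FPKM in the vehicle libraries, and 3 erythroid markers to at most 0.184 FPKM with 2DG and 0.256 FPKM with vehicle. Klrb1c, Hbb-b1 and Hba-a1 were listed at 0 in all 6 libraries. The part of these markers in any value below was not tested.

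**Figure D2:**
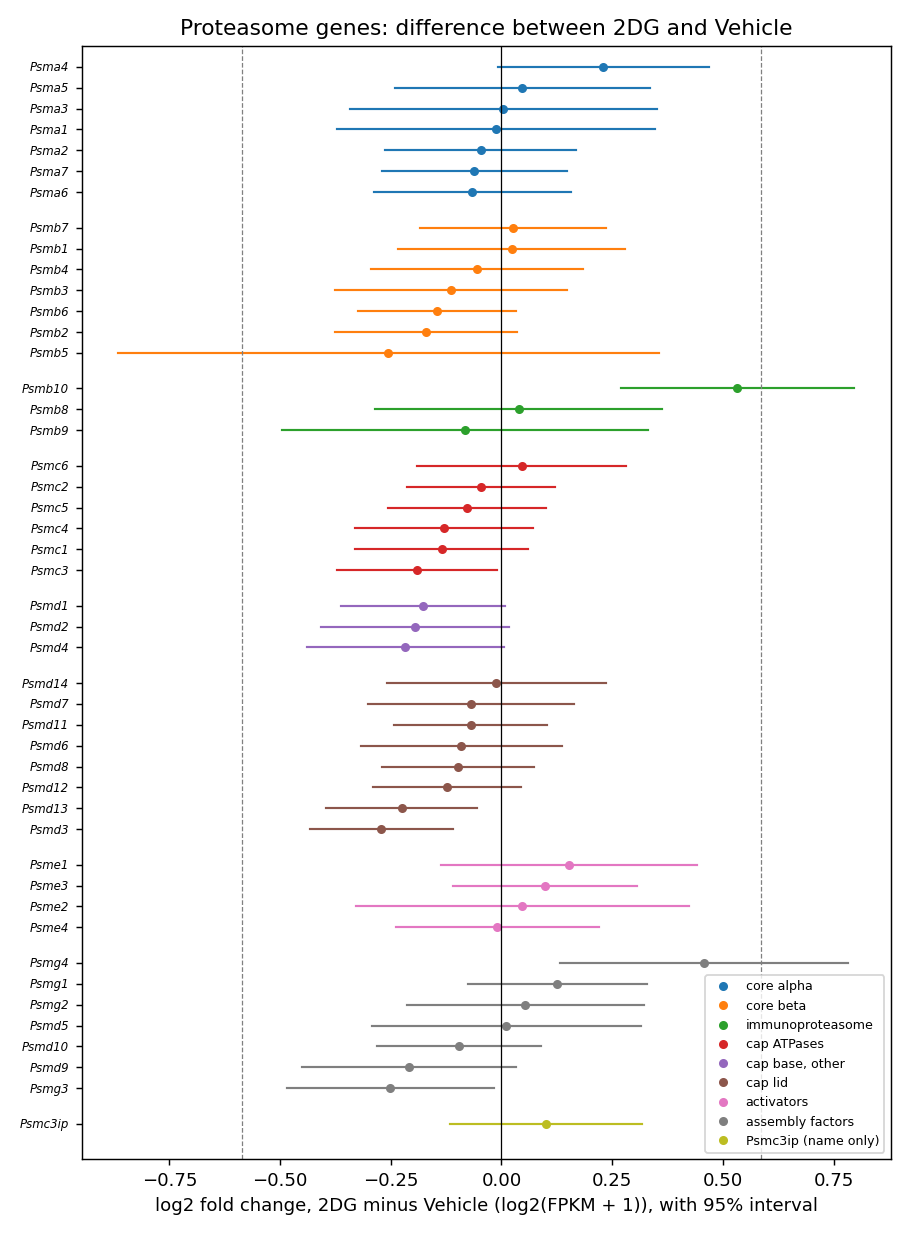
Log2 fold change of each tested proteasome gene (2DG minus vehicle, log2(FPKM + 1); points) with its 95% interval (lines), grouped by class; dashed lines mark a 1.5-fold change. Psmb10 and Psmg4 lie farthest to the right at 0.53 and 0.46, and 16 of the 17 cap genes lie left of 0.

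Of the 3 immunoproteasome genes, Psmb10 stood apart from Psmb8 and Psmb9, and none passed the test. Psmb10, which encodes the immunoproteasome subunit with trypsin-like activity (locus XLOC_020662, chromosome 8, 105935735 to 105938444, GRCm38), was at 33.2, 42.7 and 39.8 FPKM with 2DG, against 28.6, 25.6 and 24.6 FPKM with vehicle. Every 2DG library lay above every vehicle library. Its log2 fold change of 0.53 ± 0.11 (SE) was the largest of the 46 and just missed the threshold (adjusted p = 0.0574). The call depended on the processing: it passed with robust variance moderation (adjusted p = 0.0311) and without small RNA genes (0.0302), and over all alternatives the adjusted p ran from 0.0145 to 0.25. An antisense transcript, Gm16156, overlaps Psmb10, and the use of strand in the authors' counting is not given in the sources used here.

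Psmb8 and Psmb9 lie close together in the major histocompatibility complex on chromosome 17, on either side of Tap1. Psmb8, of the immunoproteasome's chymotrypsin-like site (34197721 to 34201454), was at 188, 242 and 249 FPKM with 2DG, against 229, 238 and 191 FPKM with vehicle. Psmb9, of the subunit that takes the place of Psmb6 (34181987 to 34187764), was at 63.4, 84.9 and 87.3 FPKM with 2DG, against 79.8, 102 and 68.7 FPKM with vehicle. The groups overlapped for both genes, and their lowest 2DG library was replicate 1 while their lowest vehicle library was replicate 3. Their log2 fold changes were 0.039 ± 0.14 and -0.082 ± 0.18 (SE, adjusted p = 0.917 and 0.851). Psmb9 overlaps Tap1 on the opposite strand, so reads from that stretch may have counted for either gene. Psmb8 overlaps Gm20496 on the opposite strand.

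The immunoproteasome genes were set against their constitutive partners within each library, since a ratio inside a library is free of scaling between libraries. These are ratios of transcripts, and the exchange of subunits in the particle was not measured. Psmb7, the constitutive partner of Psmb10, was at 267, 246 and 287 FPKM with 2DG, against 276, 255 and 253 FPKM with vehicle. It overlaps Nek6 and Gm13586 on the opposite strand and Gm27634 on the same strand, so its value may hold reads of these genes. The log2 ratio of Psmb10 to Psmb7 was -3.01, -2.53 and -2.85 with 2DG, against -3.27, -3.32 and -3.36 with vehicle. All 2DG libraries lay above all vehicle libraries, by 0.52 on average, and the two-sided exact permutation p was 0.1, the smallest that 3 against 3 libraries allow (0.3 adjusted over the 3 ratios tested). Leaving out 1 library moved the difference between 0.39 and 0.63. Psmb6, the partner of Psmb9, was at 179, 174 and 194 FPKM with 2DG, against 201, 204 and 200 FPKM with vehicle. Its groups did not overlap, with 2DG lower, but it did not pass the test (log2 fold change -0.15 ± 0.075, SE; adjusted p = 0.371). The log2 ratio of Psmb9 to Psmb6 was -1.50, -1.04 and -1.15 with 2DG, against -1.34, -1.003 and -1.54 with vehicle, a difference of 0.064 within the spread of each group (exact permutation p = 0.8, two-sided). Leaving out 1 library moved it across 0, from -0.060 without vehicle replicate 3 to 0.21 without vehicle replicate 2. The shared locus of Psmb5 and Mir686, the partner of Psmb8, was at 2034, 1252 and 2572 FPKM with 2DG, against 2498, 2199 and 2027 FPKM with vehicle. The log2 ratio of Psmb8 to it differed by 0.29 (exact permutation p = 0.6, two-sided), a value that rests on 2DG replicate 2 and was -0.049 without that library. Against the other constitutive beta genes in place of that locus, an alternative chosen after seeing the data, the Psmb8 difference was 0.11 (exact permutation p = 0.5, two-sided).

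**Figure D3:**
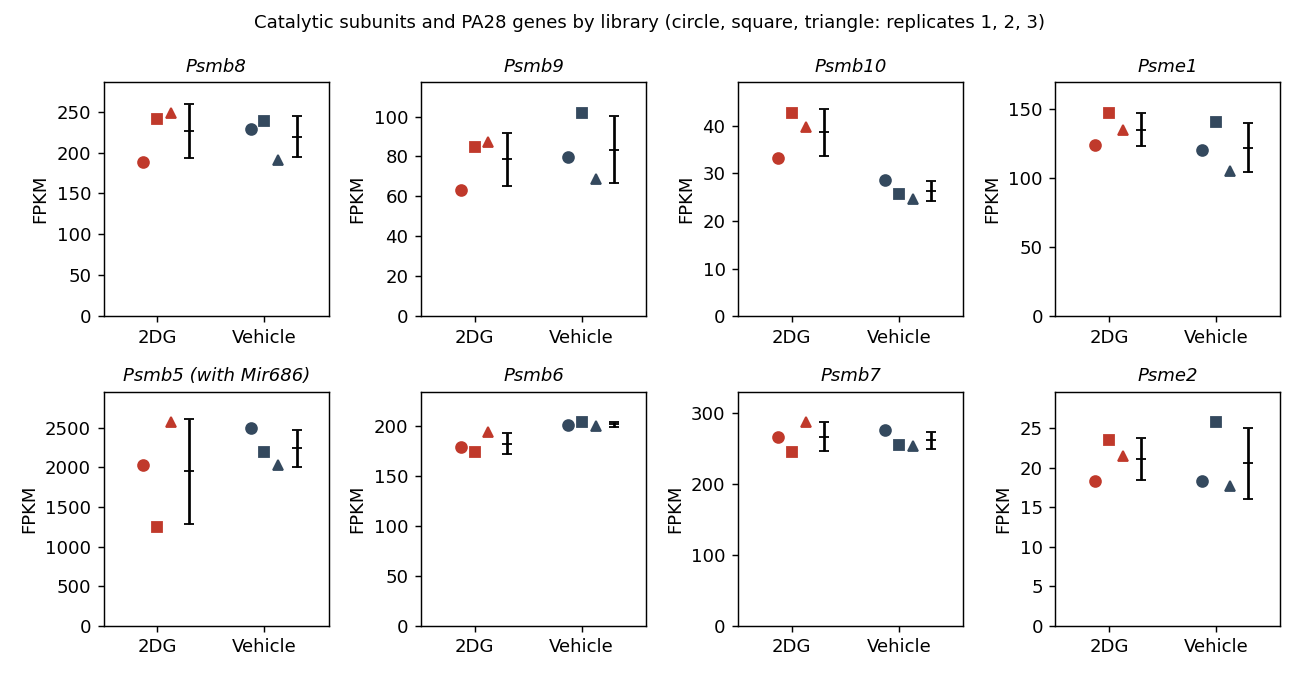
FPKM in each library of the immunoproteasome genes (top row, with Psme1) and of their constitutive partners below them (bottom row, with Psme2); red points are 2DG and dark blue points vehicle libraries, bars are mean and SD of 3 libraries, and each axis starts at 0. In the top row the groups are separate for Psmb10, at 33.2 to 42.7 FPKM with 2DG and 24.6 to 28.6 FPKM with vehicle.

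In the core the alpha genes showed little difference between the groups, while most constitutive beta genes had lower values with 2DG. None of these genes passed the test. Of the 7 tested alpha genes, 3 had a log2 fold change above 0 and 4 below it, between -0.066 and 0.23 with a median of -0.011, and all of them had overlapping groups. Psma4, an alpha subunit, had the largest at 0.23 ± 0.10 (SE, adjusted p = 0.294). It was at 134, 137 and 155 FPKM with 2DG, against 113, 135 and 115 FPKM with vehicle, so the lowest 2DG library lay just below the highest vehicle library. Psma4 overlaps AY074887 on the opposite strand. Of the 7 constitutive beta genes, 2 lay above 0 and 5 below (52.1% of all tested loci lay below 0). The beta median was -0.11. The medians of the cap's ATPases and lid were similar, -0.10 and -0.094. The sign of the alpha median depended on the scaling. This median was 0.044 after quantile normalization, 0.0011 after rescaling to equal sums and 0.045 after equal sums without the small RNA genes. In the same order, the medians of all tested loci were -0.0068, 0.0020 and 0.041. Only after quantile normalization did the alpha median lie clearly apart from that of all tested loci. The alpha median also turned with the libraries used, from -0.10 without 2DG replicate 3 to 0.033 without 2DG replicate 2. The beta median was below 0 in every alternative run, from -0.15 to -0.019. The value of -0.019 came without 2DG replicate 2, where all tested loci had a median of -0.018. So the distance of the beta genes from all tested loci rested on that library. Psmb2, a beta subunit without a cutting site, was at 192 ± 11.6 FPKM with 2DG and 217 ± 14.9 FPKM with vehicle (SD, n = 3 each; adjusted p = 0.365). In the core genes the 2DG libraries differed among themselves more than the groups did. The median deviation of the 14 core genes from their mean over the 6 libraries (log2 scale) was -0.048, -0.11 and 0.12 in 2DG replicates 1, 2 and 3, against 0.089, 0.017 and -0.035 in the vehicle libraries. Over all 46 genes, 2DG replicate 2 held the lowest value of 18 and 2DG replicate 3 the highest value of 14.

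Most cap genes had lower values with 2DG, though none passed the test. Of 17 cap genes, 16 had a log2 fold change below 0, where 52.1% of all tested loci had one, and their median was -0.12. In 8 of the 17 every 2DG library lay below every vehicle library, an order found at 11.8% of all tested loci, and in none was the order the opposite (11.9% of all tested loci). The smallest adjusted p was 0.0938. The count below 0 was 14 to 17 and the median -0.16 to -0.067 over all alternatives, including the 3 other scalings and centring on the median. The 3 base subunits without ATPase activity had the lowest median of the cap groups, -0.20. Psmd4, a ubiquitin receptor, was at 135, 150 and 142 FPKM with 2DG, against 152, 184 and 162 FPKM with vehicle. Psmd2, a scaffold subunit, was at 115, 124 and 130 FPKM with 2DG, against 131, 154 and 139 FPKM with vehicle. Psmd1, the other scaffold subunit, was at 87.8, 82.0 and 89.6 FPKM with 2DG, against 97.7, 92.3 and 104 FPKM with vehicle. In all 3 genes the groups did not overlap, with log2 fold changes of -0.22, -0.20 and -0.18 and adjusted p-values of 0.29 to 0.31. Psmd1 overlaps Gm21972 on the same strand, so its value may hold reads of that gene.

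All 8 lid genes had a log2 fold change below 0, from -0.27 to -0.011. Psmd3, a scaffold subunit of the lid (XLOC_002997, chromosome 11, 98682554 to 98695979, GRCm38), was at 83.5, 90.6 and 85.7 FPKM with 2DG, against 104, 104 and 106 FPKM with vehicle. The gap between the groups was wider than the spread within either. It had the lowest log2 fold change of all 46 genes, -0.27 ± 0.069 (SE, adjusted p = 0.0938), a ratio of means of 0.828. Over its alternatives the adjusted p ran from 0.0728 to 0.854. Psmd3 overlaps Gm12356 on the opposite strand. Psmd13, a further lid subunit, was at 125, 117 and 129 FPKM with 2DG, against 143, 146 and 144 FPKM with vehicle. Its groups did not overlap either (log2 fold change -0.23 ± 0.072, SE; adjusted p = 0.165), and it overlaps Sirt3 on the opposite strand. Psmd12 (-0.12) and Psmd8 (-0.098) followed, and Psmd14, the enzyme that removes ubiquitin from the substrate, was at 134 ± 15.5 FPKM with 2DG and 134 ± 7.69 FPKM with vehicle (SD, n = 3 each; adjusted p = 0.973).

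Of the 6 ATPase genes, 5 had a log2 fold change below 0. Psmc3 had the lowest, -0.19 ± 0.077 (SE, adjusted p = 0.255). It was at 147, 157 and 156 FPKM with 2DG, against 171, 186 and 169 FPKM with vehicle. Psmc3 overlaps Slc39a13 on the opposite strand. Psmc4 was at 144, 136 and 142 FPKM with 2DG, against 145, 170 and 149 FPKM with vehicle. The groups of both genes did not overlap, although those of Psmc4 nearly touched. Psmc6 was the cap gene with a value above 0, at 134 ± 13.4 FPKM with 2DG and 129 ± 9.01 FPKM with vehicle (SD, n = 3 each; adjusted p = 0.855). For the 9 genes of the COP9 signalosome, a complex built on a plan like that of the lid, none passed the test, 6 of 9 lay below 0 and the median was -0.024. Whether the cap and that complex differ was not tested.

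**Figure D4:**
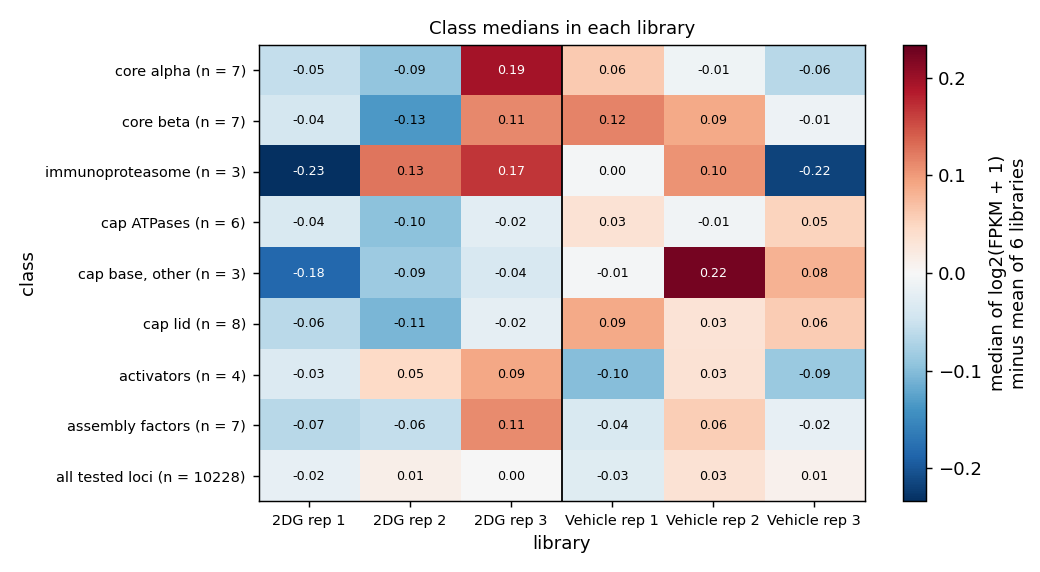
Median, over the genes of each class, of log2(FPKM + 1) minus the gene's mean over the 6 libraries, for 2DG libraries (left of the line) and vehicle libraries (right). The cap rows are below 0 in all 3 2DG libraries. In the vehicle libraries the ATPase row is just below 0 in replicate 2 (-0.0083). The row of the other base subunits varies there from -0.0052 in replicate 1 to 0.22 in replicate 2. The core and immunoproteasome rows take both signs within each group.

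The activators and assembly factors included no gene that passed. Psme1 and Psme2 encode the alpha and beta chains of PA28, an activator that interferon induces and that works with the immunoproteasome. Psme1 was at 124, 147 and 135 FPKM with 2DG, against 120, 140 and 105 FPKM with vehicle. Psme2 was at 18.3, 23.5 and 21.5 FPKM with 2DG, against 18.2, 25.7 and 17.7 FPKM with vehicle. Both pairs of groups overlapped (log2 fold change 0.15 ± 0.12 and 0.047 ± 0.16, SE; adjusted p = 0.573 and 0.911). Psme3, the gene of a nuclear activator, and Psme4, that of PA200, were at 128 ± 10.3 and 26.8 ± 2.24 FPKM with 2DG and 120 ± 6.26 and 27.0 ± 2.29 FPKM with vehicle (SD, n = 3 each). The median of the 4 activators was 0.073.

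The assembly chaperones of the core's alpha ring work as the pairs Psmg1 with Psmg2 and Psmg3 with Psmg4. The second pair had values on opposite sides of 0. Psmg4 (XLOC_005014, chromosome 13, 34162964 to 34178173, GRCm38) was at 60.3, 70.3 and 71.7 FPKM with 2DG, against 45.2, 59.7 and 42.9 FPKM with vehicle. Psmg3 (XLOC_016272, chromosome 5, 139823592 to 139826885) was at 27.0, 30.8 and 30.2 FPKM with 2DG, against 31.2, 37.6 and 36.8 FPKM with vehicle. The groups did not overlap in either gene, but lay less than 1 FPKM apart at their nearest. The log2 fold change was 0.46 ± 0.14 for Psmg4 (SE, adjusted p = 0.146) and -0.25 ± 0.099 for Psmg3 (SE, adjusted p = 0.247). Psmg3 overlaps Gm26938 on the same strand, so its value may hold reads of that gene. Psmg4 passed once small RNA genes were left out and sums made equal (adjusted p = 0.0283), and its adjusted p was 0.0283 to 0.404 over all alternatives. Psmg1 and Psmg2 were at 58.6 ± 4.91 and 63.8 ± 7.26 FPKM with 2DG and 53.5 ± 2.21 and 61.4 ± 5.98 FPKM with vehicle (SD, n = 3 each). Of the base chaperones, Psmd9 was at 14.5, 15.5 and 15.4 FPKM with 2DG, against 15.4, 18.3 and 19.5 FPKM with vehicle (adjusted p = 0.348), and Psmd5 and Psmd10 had log2 fold changes of 0.011 and -0.096.

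Genes that work with the proteasome but lie outside the naming rule held no called gene either. Of 17 tested partners, 0 passed the limma test, and 0 did at an unadjusted p under 0.05, with a median log2 fold change of -0.040. Pomp, which guides the closing of the core, was at 359, 310 and 390 FPKM with 2DG, against 390, 305 and 379 FPKM with vehicle. Adrm1, a ubiquitin receptor of the cap, was at 6.54 ± 0.319 FPKM with 2DG and 7.52 ± 0.216 FPKM with vehicle (SD, n = 3 each; adjusted p = 0.345). Ubiquitin supply (6 genes), the VCP segregase and its cofactors (9 genes) and peptidases that trim the products (9 genes) held no called gene. In these lists 4, 8 and 5 genes lay below 0, where 52.1% of all tested loci did, with medians of -0.16, -0.067 and -0.050. At an unadjusted p under 0.05 they held 3 (1 higher, 2 lower), 1 (lower) and 1 (lower), where all tested loci gave 17.9%. Among them Uba6, an enzyme that activates ubiquitin, was at 20.8 ± 0.590 FPKM with 2DG and 17.8 ± 0.701 FPKM with vehicle (SD, n = 3 each; adjusted p = 0.188), and Tpp2, a large peptidase downstream of the proteasome, at 47.8 ± 3.40 FPKM with 2DG and 58.1 ± 2.48 FPKM with vehicle (SD, n = 3 each; adjusted p = 0.133).

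The regulators of proteasome genes were looked at as a list of 8. Nfe2l1 encodes NRF1, the factor that raises proteasome genes when degradation falls short, and was at 29.2, 34.6 and 26.3 FPKM with 2DG, against 21.4, 27.7 and 25.8 FPKM with vehicle. Nfe2l2, which encodes the related NRF2, was at 11.5, 12.9 and 14.7 FPKM with 2DG, against 16.2, 16.7 and 18.5 FPKM with vehicle. The groups overlapped for Nfe2l1 and not for Nfe2l2, and neither passed (adjusted p = 0.374 and 0.133), nor did Ddi2, the protease that activates NRF1 (log2 fold change -0.10 ± 0.11, SE; adjusted p = 0.699). None of the 8 passed. At an unadjusted p under 0.05 there was 1 higher and 1 lower, where all tested loci gave 9.07% and 8.82%. The higher gene was Nfyc, whose groups did not overlap (log2 fold change 0.35 ± 0.10, SE; limma adjusted p = 0.139). The lower gene was Nfe2l2.

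Irf1, which drives immunoproteasome genes under interferon, was at 24.0 ± 2.37 FPKM with 2DG and 23.6 ± 3.28 FPKM with vehicle (SD, n = 3 each; adjusted p = 0.944). The peptide transporter gene Tap1, between Psmb9 and Psmb8, was at 52.7, 61.0 and 65.2 FPKM with 2DG, against 68.3, 68.3 and 57.8 FPKM with vehicle, with overlapping groups (adjusted p = 0.625). None of the 11 peptide loading genes passed, and 7 lay above 0 and 4 below. At an unadjusted p under 0.05 there were 5 higher and 0 lower, where all tested loci gave 9.07% and 8.82%. These 5 were Tapbp, Erap1, Calr, Canx and Pdia3. The 4 below 0 were Tap1, Tap2, H2-K1 and H2-D1 (log2 fold changes -0.12, -0.29, -0.033 and -0.29). Tapbp, which bridges the transporter and class I molecules, had the smallest p (log2 fold change 0.40 ± 0.13, SE; adjusted p = 0.18).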

How the data were processed

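The authors deposited one table of FPKM values per locus and library. The build mm10 and, as tools, Cuffdiff 2.2.1.3, Cuffnorm 2.2.1.1, Cufflinks 2.2.1.0 and TopHat2 2.1.0 are listed in the submitters' processing notes. The sources used here give neither settings, annotation nor strand use. The 75th percentiles of the libraries were 10.9 to 11.6 FPKM, the share of small RNA genes in the FPKM sums was 69.8% to 76.1%, and libraries correlated at r = 0.982 to 0.989 within and 0.969 to 0.981 between groups. With no counts, depth is unknown.

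Loci averaging 1 FPKM or more (10228 of 23203) were tested with limma 3.58.1 (R 4.3.3) on log2(FPKM + 1), group as the only term, eBayes with a trend, two-sided, Benjamini-Hochberg over all tested loci, threshold 0.05. The pseudocount makes log2 fold changes of low genes too small. The code was tested on simulated data. Ratios within a library were compared by exact permutation in Python 3.11.15 with scipy 1.17.1. Of genes in the lists, 1 was not found and 2 were matched by synonym. Coordinates and overlaps came from GENCODE M21 (GRCm38, the assembly of mm10), copies from BLAST+ 2.17.0 on its transcripts and promoters from RefSeq, using the first listed start of a gene. Overlaps with other genes are named for some members only. Members, lists and alternatives were chosen with earlier results of these data known. Genes named are the cutting subunits and PA28 genes, the 4 of smallest p per class, the 3 at either end, up to 3 per list, and Nfe2l1, Ddi2, Pomp, Adrm1, Irf1 and Tap1, with 1 item not reported here; Psma3, Psma5, Psmd5, Psmd10, Psmd14, Psmc6, Psmg2 and others named for their level or place in the order were chosen after their values were seen.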

Additional observations from a re-analysis of the deposited data

How the results depend on the processing

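Members called were 0 higher and 0 lower, and so they were in all alternatives except 3: robust eBayes (1 higher), leaving out small RNA genes (1 higher) and doing so with equal sums (2 higher); the gene in each was Psmb10, joined by Psmg4 in the last. Loci called higher (156) and lower (122) were 100 and 65 without a filter, 93 and 61 with equal sums, 262 and 214 without small RNA genes, 323 and 196 when sums were also made equal, 247 and 199 with robust eBayes, 57 and 44 with the replicate block, 11 and 6 with replicates 2 and 3 only, and 37 to 87 and 14 to 55 with 1 library left out. With equal sums outside small RNA genes the ATPase and lid medians were -0.048 and -0.038. All tested loci then had a median of 0.041, against -0.0093 in the main fit. Less the median of all tested loci, the ATPase and lid medians were -0.089 and -0.080, against -0.095 and -0.085 in the main fit. With 1 library left out the lid median ran from -0.14 to -0.076, that of the activators from 0.039 to 0.15 and that of the assembly factors from -0.090 to 0.089. The cause of these shifts was not tested.

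The titles carry the same 3 numbers in both groups without saying what they mark. Deviations of same-numbered libraries from their group means correlated at -0.053, 0.38 and -0.20, so the block was not taken as a pairing. It changed no call of a proteasome gene. In this balanced design the block leaves the differences of the log2 ratios as they are (0.52, 0.064 and 0.29) and changes only p: the exact paired permutation p was 0.25 for Psmb10 to Psmb7, the smallest that 3 pairs allow, 1.0 for Psmb9 to Psmb6 and 0.25 for Psmb8 to Psmb5. For the 32 of the 46 tested proteasome genes that were picked to be named, under all alternatives, 572 of 576 results kept their side of the threshold and 4 gained the call; 24 uncalled values of 9 genes changed sign.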
